A study of Mus musculus with 12 samples.

Results

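The cytosolic ribosomal protein genes encode the proteins of the cell's main ribosome. Mouse NIH/3T3 cells, an immortalised line of embryonic fibroblasts of wild-type genotype, were grown in DMEM with 10% FBS, and their polyadenylated RNA was sequenced in 12 libraries. In CFZ-DOX the cells received 200 nM carfilzomib, an irreversible proteasome inhibitor, and 5 µM doxorubicin, an anthracycline that poisons topoisomerase II. In DOX and in CFZ they received one of these drugs at the same dose, and in DMSO the vehicle. Every treatment lasted 8 h and every group held 3 libraries. Since no label states that replicates came from separate cultures, the p-values describe the scatter among these libraries, which may be technical.

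Genes were chosen by symbol: Rpl or Rps followed by a number and at most an a or x, together with Rplp0, Rplp1, Rplp2 and Rpsa, without Rps27a, and with at least 1000 counts summed over the 12 libraries. Of 56980 gene IDs, 75 had such a symbol and 74 reached the count minimum: 42 of the large subunit, 29 of the small subunit and the 3 stalk genes. Just inside the minimum stood Rps10 with 2867 counts, followed by Rpl13a with 22277. Rpl24, of the large subunit, was the 1 gene outside it, with 356 counts. All 74 passed the filter on low counts, among 16648 genes that did. The names rest on symbols alone, and the fibroblast label was checked with markers: Col1a1, Col1a2, Fn1 and Vim were abundant in every library, whereas Ptprc, Cd3e and Itgam of blood cells, Epcam and Krt18 of epithelia and Kdr of endothelia held 4 to 26 counts each over all libraries. Other markers were present. The keratin Krt14 stood at 129 to 149 CPM in CFZ-DOX, 78.0 to 89.7 in DOX, 113 to 188 in CFZ and 58.5 to 87.7 in DMSO, and was higher than in DMSO in CFZ-DOX and CFZ. Pecam1, an endothelial adhesion molecule, stood at 1.51 to 2.48 CPM in CFZ-DOX and 1.49 to 2.24 in DOX, where it was higher, 0.07 to 0.09 in CFZ and 0.05 to 0.20 in DMSO. Cdh1, the epithelial cadherin, was lower than in DMSO in every treated group. It averaged 0.44 CPM in CFZ-DOX, 1.36 in DOX, 0.52 in CFZ and 2.89 in DMSO. Cdh5, the endothelial cadherin, was not called against DMSO in any group. Both cadherins stood at 0.29 to 3.24 CPM over all libraries. CPM are counts per 1e+06, with library totals multiplied by their TMM scaling factor. The summed CPM of 9 fibroblast markers ranged from 41899 to 103242 in CFZ-DOX, 28476 to 65408 in DOX, 17864 to 27646 in CFZ and 24585 to 31744 in DMSO. Of these 9 markers 6 were higher and 2 lower in CFZ-DOX than in DMSO, 3 were higher and 2 lower in DOX, and 3 were lower in CFZ. Of all tested genes 39.3% were higher and 35.7% lower in CFZ-DOX, 36.1% and 31.3% in DOX, and 14.4% lower in CFZ. The 2 lower markers were Pdgfra and Pdgfrb, with log2 fold changes of −2.58 and −1.87 in CFZ-DOX and −2.20 and −1.32 in DOX. Those lower in CFZ were Pdgfrb at −2.05, S100a4 at −1.47 and Vim at −0.76. The part of these markers in the results that follow was not tested.

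A ribosome is built from ribosomal RNA and a single copy of nearly every ribosomal protein, with extra copies of the acidic stalk proteins, so the cell needs these proteins in near-equal numbers. Their messages begin with a C followed by a run of pyrimidines, the 5′ terminal oligopyrimidine (TOP) motif. Through it their translation and their stability follow nutrient and mTOR signals, in which the RNA-binding protein Larp1 takes part. Ribosomal proteins made in excess are degraded by the proteasome, and free Rpl5 and Rpl11 are known to bind the p53 ligase Mdm2.

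The start sites of a few of these genes are shown because the TOP motif is the sequence that the family is known to share. They were read from RefSeq promoters of build GRCm38.p6, which held 55 of the 74 genes in 65 entries. Each line gives 30 bases, 15 before and 15 after the annotated start, and capitals mark the unbroken run of C or T that begins at the start.
Rps6: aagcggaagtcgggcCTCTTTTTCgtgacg
Rpl15: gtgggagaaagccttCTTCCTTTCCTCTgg
Rpl35: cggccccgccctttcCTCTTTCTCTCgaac
Rplp2: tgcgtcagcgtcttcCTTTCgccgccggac
Rps10: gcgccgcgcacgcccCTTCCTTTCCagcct
Rpl31: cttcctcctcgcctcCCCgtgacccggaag
Rpl5: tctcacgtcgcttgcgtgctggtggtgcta

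The windows lie at chr4:86857353-86857382 on the minus strand for Rps6, chr14:18270972-18271001 minus for Rpl15, chr2:39005117-39005146 minus for Rpl35 and chr7:141447636-141447665 plus for Rplp2. Those of Rps10, Rpl31 and Rpl5 lie at chr17:27635230-27635259 minus, chr1:39367836-39367865 plus and chr5:107900513-107900542 plus. A C at the annotated start followed by at least 4 further C or T stood in 13 of the 65 entries (20%), against 823 of all 32851 entries (2.51%). With such a run allowed to begin within 5 bases of the annotated start, the shares were 44.6% and 18.3%. Rps6, Rpl15, Rpl35, Rplp2 and Rps10 start with such a run, while the run of Rpl31 is shorter and Rpl5 has none at its annotated start. In the whole 300-base window, either strand, CTCTTTC stood in 30.8% of the entries of these genes and 8.16% of all, CCGGAAG in 36.9% and 8.86%, and TATAAA in 9.23% and 13.6%. CTCTTTC can overlap the run at the start.

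The 12 libraries held 28278879 to 42033993 counts, and no pair of replicates agreed within sampling noise. Replicates with doxorubicin differed more from each other than those without, with a chi-square per degree of freedom of 51.4 to 122.8 in CFZ-DOX and DOX and 13.8 to 32.2 in CFZ and DMSO. Libraries with doxorubicin also held more genes with at least 1 count, 26043 ± 510 in CFZ-DOX and 26010 ± 713 in DOX, against 21730 ± 457 in CFZ and 21859 ± 436 in DMSO (SD, n = 3).

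Ribosomal protein genes took a larger share of the counts in every library with doxorubicin, and the largest with both drugs. The 74 genes together held 9.81, 9.63 and 10.3% of the counts in CFZ-DOX, 6.99, 6.87 and 6.44% in DOX, 3.75, 4.22 and 4.12% in CFZ, and 3.81, 4.08 and 4.14% in DMSO. The CFZ-DOX libraries lay above all DOX libraries and these above all others, while CFZ and DMSO overlapped. Means were 9.90 ± 0.323% in CFZ-DOX, 6.76 ± 0.289% in DOX, 4.03 ± 0.249% in CFZ and 4.01 ± 0.177% in DMSO (SD, n = 3). The share was 2.47 times that of DMSO in CFZ-DOX and 1.69 times in DOX, and the exact two-sided permutation p was 0.1 for both, the smallest that 3 libraries against 3 allow. It was also 0.1 for CFZ-DOX against DOX, a ratio of 1.46, and 0.9 for CFZ against DMSO, a ratio of 1.005. In bulk RNA, more of these transcripts per cell and less of all other RNA per cell cannot be told apart.

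**Figure D1:**
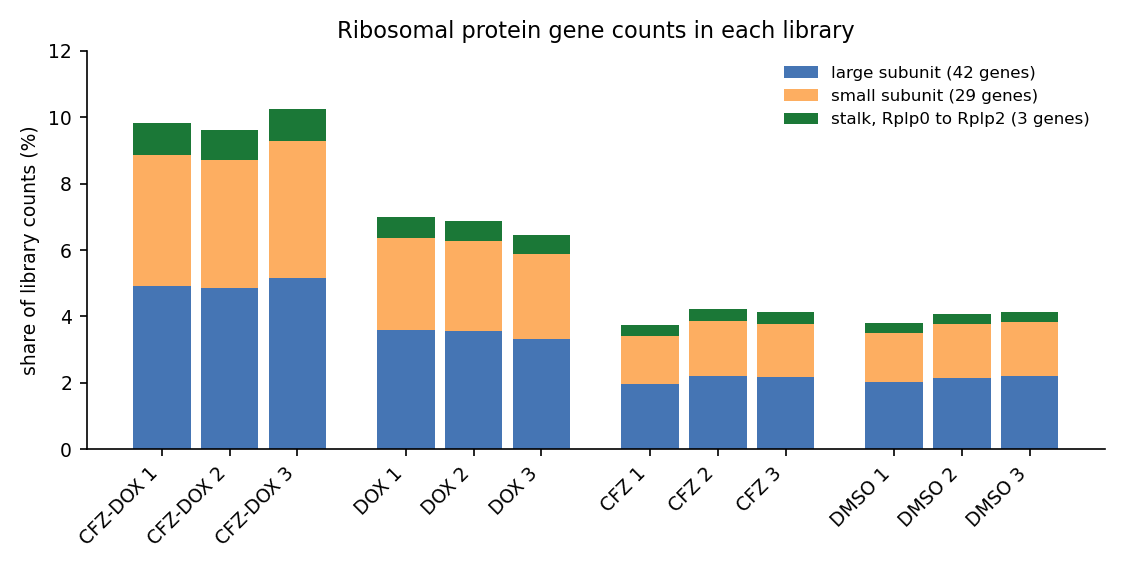
Share of library counts (%) held by ribosomal protein genes in each of the 12 libraries, as stacked bars of large subunit, small subunit and stalk genes. The CFZ-DOX libraries reach 9.63 to 10.3%, the DOX libraries 6.44 to 6.99%, and the CFZ and DMSO libraries 3.75 to 4.22%.

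Large subunit, small subunit and stalk genes each held the largest share in CFZ-DOX and the next in DOX. Large subunit genes held 4.98 ± 0.157% of counts in CFZ-DOX, 3.49 ± 0.139% in DOX, 2.11 ± 0.128% in CFZ and 2.13 ± 0.0995% in DMSO. Small subunit genes held 3.98 ± 0.142%, 2.69 ± 0.114%, 1.58 ± 0.104% and 1.57 ± 0.0708% in the same groups. The stalk genes, whose products recruit translation factors to the ribosome, held 0.942 ± 0.0298% in CFZ-DOX, 0.585 ± 0.0394% in DOX, 0.342 ± 0.0184% in CFZ and 0.315 ± 0.00732% in DMSO (SD, n = 3). The stalk share was 2.99 times that of DMSO in CFZ-DOX and 1.86 times in DOX, against 2.34 and 1.64 times for the large and 2.53 and 1.71 times for the small subunit. The stalk share was also 1.09 times that of DMSO in CFZ, with no overlap between the 2 groups, an exact permutation p of 0.1. Among all genes ranked by counts, the 100 highest included 22, 19 and 27 ribosomal protein genes in CFZ-DOX, 15, 15 and 14 in DOX, 6, 11 and 10 in CFZ, and 6, 7 and 9 in DMSO.

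In cells given doxorubicin alone nearly every one of these genes was higher, by a like amount. Calls came from edgeR's quasi-likelihood test over all 16648 tested genes with TMM scaling, at a Benjamini-Hochberg adjusted p under 0.05. Of the 74 genes 73 were higher in DOX than in DMSO and 1, Rps10, was lower, where 36.1% of all tested genes were higher and 31.3% lower. Their median log2 fold change was 0.91, against 0.14 over all tested genes, and without Rps10 the range was 0.54 to 1.18. The SD of the log2 fold change over the 74 genes was 0.27, and 0.12 with Rps10 left out, a choice made after seeing the data. Over all tested genes, with none left out, the SD was 1.84. Most of the 74 genes are among the most highly counted, and the part of count level in this difference was not tested. The 4 highest were Rpl31 at 1.18, Rps28 at 1.11, Rplp1 at 1.09 and Rps2 at 1.08, and after Rps10 the lowest were Rpl13a at 0.54, Rpl5 at 0.57 and Rpl7a at 0.66. Counts of 73 higher and 1 lower were also found with scaling to DESeq2-type size factors, library size or upper quartile.

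With both drugs the same genes other than Rps10 stood further above DMSO. In CFZ-DOX 73 genes were higher than in DMSO and none lower (edgeR, adjusted p under 0.05), with 73 genes also at an unadjusted p under 0.05, where 39.3% of all tested genes were higher and 35.7% lower. The median log2 fold change was 1.66, against 0.09 over all tested genes, and all 73 were at least 2-fold higher. The highest were Rplp1 at 2.03, Rpl31 at 2.02, Rps28 at 1.96 and Rplp0 at 1.93. The lowest were Rps10 at 0.09, which was not called, Rpl5 at 1.24, Rpl15 at 1.31 and Rpl7a at 1.35. The size of these changes depends on the scaling, since the median over all tested genes shifted by 0.50 (log2) with upper-quartile scaling and by −0.35 with library size. Relative to that median the ribosomal protein genes stood 1.55 to 1.57 higher under all 4 scalings that were not set on these genes. A change of scaling shifts all genes by nearly the same amount, so this difference could hardly move and is no test of the scaling.

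**Figure D2:**
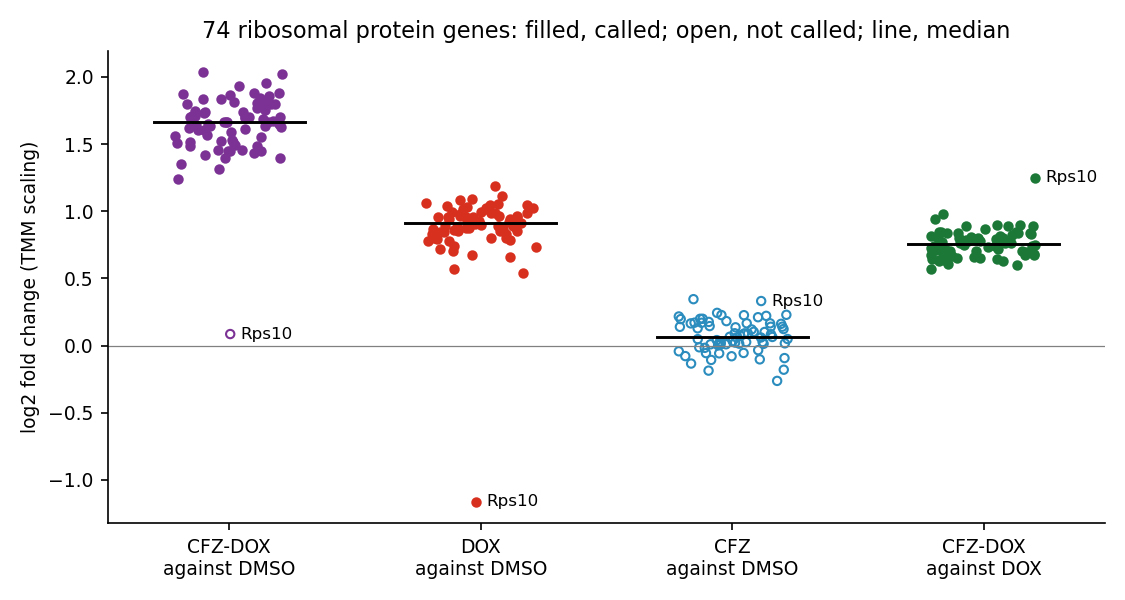
Log2 fold change of the 74 ribosomal protein genes in 4 comparisons, with TMM scaling; filled points were called, open points were not, and lines are medians. The medians are 1.66 for CFZ-DOX, 0.91 for DOX and 0.06 for CFZ against DMSO and 0.75 for CFZ-DOX against DOX, and Rps10 stands apart in DOX at −1.16.

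Carfilzomib alone left these genes near the DMSO level. None of the 74 was called higher or lower in CFZ than in DMSO, 0 also at an unadjusted p under 0.05, where 14.4% of all tested genes were higher and 14.4% lower. DESeq2 called 1 gene and limma-voom 0, and a fit of the 6 CFZ and DMSO libraries alone called 10 higher and 3 lower. The median log2 fold change was 0.06, against −0.01 over all tested genes, with a range of −0.26 to 0.35. At the ends stood Rpl10a at 0.35, Rps10 at 0.33, Rplp2 at 0.24 and Rpl3 at 0.23, and Rpl41 at −0.26, Rpl37a at −0.19, Rpl11 at −0.18 and Rps15 at −0.13.

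Added to doxorubicin, carfilzomib went with a further rise. All 74 genes were higher in CFZ-DOX than in DOX (edgeR, adjusted p under 0.05), where 10.3% of all tested genes were higher and 12% lower. The median log2 fold change was 0.75, against 0.03 over all tested genes, and the range was 0.57 to 1.25. The highest were Rps10 at 1.25, Rpl13a at 0.98, Rplp1 at 0.94 and Rplp0 at 0.90, and the lowest Rpl27 at 0.57, Rpl22 at 0.60, Rpl15 at 0.61 and Rpl29 at 0.63. In a fit of those 6 libraries alone 2 genes were called, and leaving out single libraries gave 62 to 74. The interaction term compares the effect of carfilzomib with and without doxorubicin, and its median over the 74 genes was 0.67, against 0.04 over all tested genes. It was called higher for 19 genes and lower for 0 (edgeR, adjusted p under 0.05), with 72 genes higher at an unadjusted p under 0.05, where 8.46% of all tested genes were higher and 11.2% lower. DESeq2 called 74, limma-voom 43 and a fit with the replicate number as a block 62, all higher. The count rests on single libraries: it was 71 without CFZ-DOX replicate 3 and 56 without DOX replicate 1, and 1 to 9 without any other library. Without CFZ-DOX and DOX replicate 3 together, a choice made after seeing the data, it was 74.

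The TMM factors of the libraries with doxorubicin differed widely, from 0.727 in CFZ-DOX replicate 1 to 1.17 in DOX replicate 3, and from 1.03 to 1.13 in the others. The normalised CPM of the 74 genes therefore spread more within CFZ-DOX and DOX than their share of the raw counts did. CPM below use these factors, and libraries are given in the order of replicates 1, 2 and 3.

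The stalk genes Rplp1 and Rplp0 were among those with the largest rises in CFZ-DOX. Rplp1 (ENSMUSG00000007892, chromosome 9, 61820566 to 61821824 on the minus strand, GRCm39) encodes an acidic stalk protein and had the most counts per kb of exon length in every group. It stood at 4062, 3244 and 2776 CPM in CFZ-DOX, 2147, 1770 and 1330 in DOX, 878, 991 and 891 in CFZ, and 794, 838 and 829 in DMSO. Both groups with doxorubicin lay above all other libraries, and CFZ lay above DMSO. The log2 fold change of Rplp1 was 2.03 ± 0.20 in CFZ-DOX and 1.09 ± 0.20 in DOX against DMSO (SE, edgeR adjusted p = 5.51e-07 and 0.000206), and 0.17 ± 0.19 in CFZ (adjusted p = 0.57).

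Rplp0 (ENSMUSG00000067274, chromosome 5, 115697526 to 115701786, plus strand) encodes the base of the stalk and had the most counts of the 74 genes, 1339437 over the 12 libraries. It stood at 7836, 6411 and 5610 CPM in CFZ-DOX, 4291, 3474 and 2872 in DOX, 1939, 2114 and 2011 in CFZ, and 1709, 1791 and 1704 in DMSO. The 4 groups did not overlap. Its log2 fold change was 1.93 ± 0.19 in CFZ-DOX and 1.03 ± 0.19 in DOX against DMSO (SE, edgeR adjusted p = 5.97e-07 and 0.000238). Rplp2 (ENSMUSG00000025508, chromosome 7, 141027283 to 141031498, plus strand), the partner of Rplp1, averaged 1040.5 ± 190.3 CPM in CFZ-DOX, 579 ± 112 in DOX, 351 ± 26.8 in CFZ and 297 ± 18.5 in DMSO (SD, n = 3). It had the lowest log2 fold changes of the 3 stalk genes against DMSO, 1.81 in CFZ-DOX and 0.96 in DOX. The family's medians were 1.66 and 0.91. Rpsa (ENSMUSG00000032518, chromosome 9, 119956755 to 119961435, plus strand), a small subunit protein also known as the laminin receptor precursor, averaged 5406 ± 656 CPM in CFZ-DOX, 2918 ± 486 in DOX, 1673 ± 159 in CFZ and 1518 ± 91.4 in DMSO.

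Rpl5 and Rpl11, which join the ribosome together with the smallest ribosomal RNA of the large subunit, rose with doxorubicin. Rpl5 (ENSMUSG00000058558, chromosome 5, 108048368 to 108056871, plus strand) stood at 1803, 1666 and 1510 CPM in CFZ-DOX, 1166, 1081 and 893 in DOX, 746, 828 and 880 in CFZ, and 662, 728 and 721 in DMSO. The 4 groups did not overlap. Its log2 fold change was 1.24 ± 0.16 in CFZ-DOX, 0.57 ± 0.15 in DOX and 0.22 ± 0.15 in CFZ (SE, edgeR adjusted p = 5.55e-06, 0.00443 and 0.324). Rpl11 (ENSMUSG00000059291, chromosome 4, 135755576 to 135780739, minus strand) stood at 1380, 1184 and 959 CPM in CFZ-DOX, 886, 775 and 610 in DOX, 360, 388 and 362 in CFZ, and 400, 432 and 424 in DMSO. The lowest CFZ-DOX library of Rpl11 lay above the highest DOX library, and CFZ lay below DMSO. Its log2 fold change was 1.49 ± 0.17 in CFZ-DOX, 0.85 ± 0.17 in DOX and −0.18 ± 0.17 in CFZ (SE, edgeR adjusted p = 2.78e-06, 0.00053 and 0.47).

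Other members with known roles had log2 fold changes against DMSO on both sides of the family's medians of 1.66 in CFZ-DOX and 0.91 in DOX. Rpl23, whose product also binds Mdm2, had a log2 fold change of 1.56 in CFZ-DOX and 0.94 in DOX, and Rpl26, whose product binds the p53 message, 1.62 and 0.88. Rps6, the substrate of the S6 kinases, had 1.39 and 0.72, and Rpl22, an RNA-binding member with a close paralogue, 1.45 and 0.85. Rps19 and Rps26, both mutated in Diamond-Blackfan anaemia in humans, had 1.88 and 0.98, and 1.70 and 0.99. Rps27 had 1.88 and 1.05. Of the core genes, Rpl3 near the peptidyl transferase centre had 1.42 and 0.67, Rpl4 of the exit tunnel 1.46 and 0.73, and Rps2 and Rps3 of the message entry channel 1.80 and 1.08, and 1.60 and 0.80. All of these were called higher in both comparisons.

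**Figure D3:**
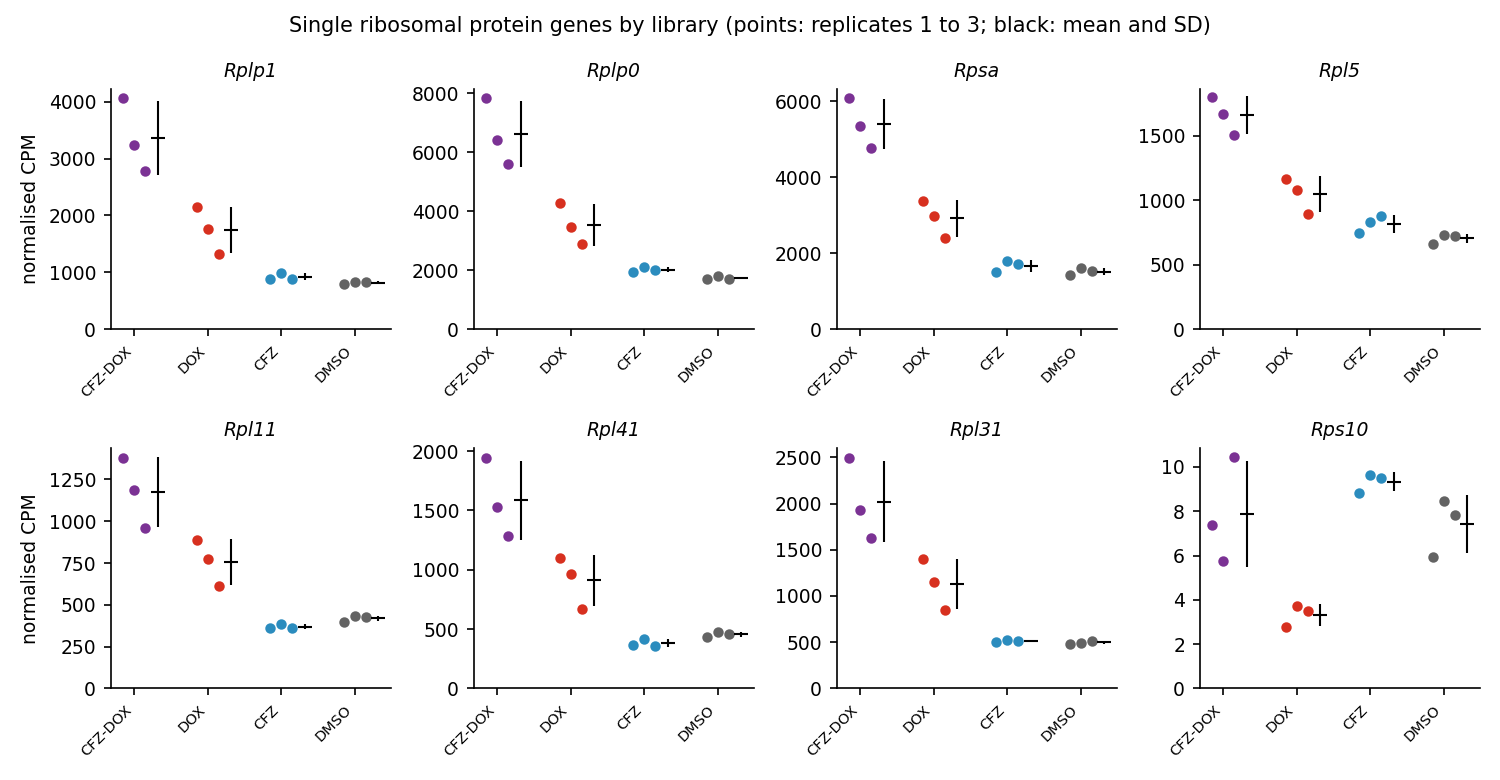
Normalised CPM of 8 ribosomal protein genes in each library, with the mean and SD of 3 libraries in black. Of these genes, 7 are highest in CFZ-DOX and next in DOX, while Rps10 is lowest in DOX, at 2.76 to 3.70 CPM.

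Rps10 differed from the rest in level and in direction. Rps10 (ENSMUSG00000052146, chromosome 17, 27849392 to 27855643, minus strand), a small subunit protein near the message entry site, had the fewest counts of the 74. It held 205, 142 and 308 counts in CFZ-DOX, 102, 121 and 132 in DOX, 297, 396 and 303 in CFZ, and 219, 369 and 273 in DMSO. In normalised CPM this was 7.36, 5.75 and 10.5 in CFZ-DOX, 2.76, 3.70 and 3.48 in DOX, 8.84, 9.64 and 9.50 in CFZ, and 5.95, 8.47 and 7.82 in DMSO. All DOX libraries lay below all others, and CFZ-DOX overlapped both CFZ and DMSO. Rps10 was lower in DOX than in DMSO (log2 fold change −1.16, SE 0.23, edgeR adjusted p = 0.000429) and higher in CFZ-DOX than in DOX (1.25, SE 0.23, adjusted p = 0.00227).

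The low counts of Rps10 go with an overlapping gene model. By the deposited gene coordinates 20.6% of its exon bases were shared on the same strand, 475 of them with a readthrough gene listed as RPS10-NUDT3, which held 0 counts in every library. Rpl13a shared 35.4% of its exon bases, mostly with Gm45713, and Rpl24 shared 47.0%, with Gm28037, and both of these models held 0 counts as well. These 3 genes were the ones with the largest share of same-strand overlap, and they held the fewest counts of the 75 genes. The part of the overlap in their values was not tested. Processed copies also bear on Rps10: the pseudogenes Rps10-ps1 and Rps10-ps2 held 192, 176 and 143, and 295, 342 and 314 counts in CFZ-DOX, 136, 97 and 105, and 249, 154 and 261 in DOX, 37, 82 and 72, and 65, 103 and 140 in CFZ, and 57, 90 and 96, and 74, 121 and 153 in DMSO. The values of Rps10 are uncertain, because the rule for reads matching several genes is not given in the sources used here.

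Whether the genes kept their proportions was asked by scaling the libraries so that the 74 genes had equal summed counts in each, which gives each gene's change relative to the family's average. In CFZ-DOX against DMSO 9 genes rose relative to that average and 14 fell (edgeR, adjusted p under 0.05), where 11.1% of all tested genes were higher and 68.7% lower. The adjustment ran over all tested genes, most of which were called, so it was hardly stricter than no adjustment. At an unadjusted p under 0.05 the count was also 23. Those higher included Rplp1 at 0.36 ± 0.08, Rpl31 at 0.34 ± 0.09, Rps28 at 0.28 ± 0.09 and Rplp0 at 0.26 ± 0.07 (log2 ± SE, edgeR adjusted p = 0.000781, 0.00224, 0.0114 and 0.00357). Rpl12, Rps19, Rps20 and Rpsa also were, at 0.17 to 0.21. Those lower included Rps10 at −1.53 ± 0.30, Rpl5 at −0.42 ± 0.09, Rpl15 at −0.35 ± 0.08 and Rpl7a at −0.32 ± 0.08 (edgeR adjusted p = 0.000366, 0.000506, 0.00104 and 0.00244). The others were Rpl7, Rps6, Rpl3, Rpl22, Rpl10, Rpl34, Rpl4, Rpl27, Rpl11 and Rpl17, at −0.27 to −0.17. With the stalk genes set apart, the 14 lower genes were 12 of the 42 large subunit genes and 2 of the 29 small subunit genes, and the 9 higher genes were 2 of the large subunit, 5 of the small subunit and 2 of the 3 stalk genes. The difference between these classes was not tested. Apart from Rps10 the folds of these genes relative to the average lay between 0.747 for Rpl5 and 1.28 for Rplp1. Leaving out DMSO replicate 1, 2 or 3 gave 12, 15 or 13 calls in place of 23, and a fit of the 6 libraries alone gave 9.

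**Figure D4:**
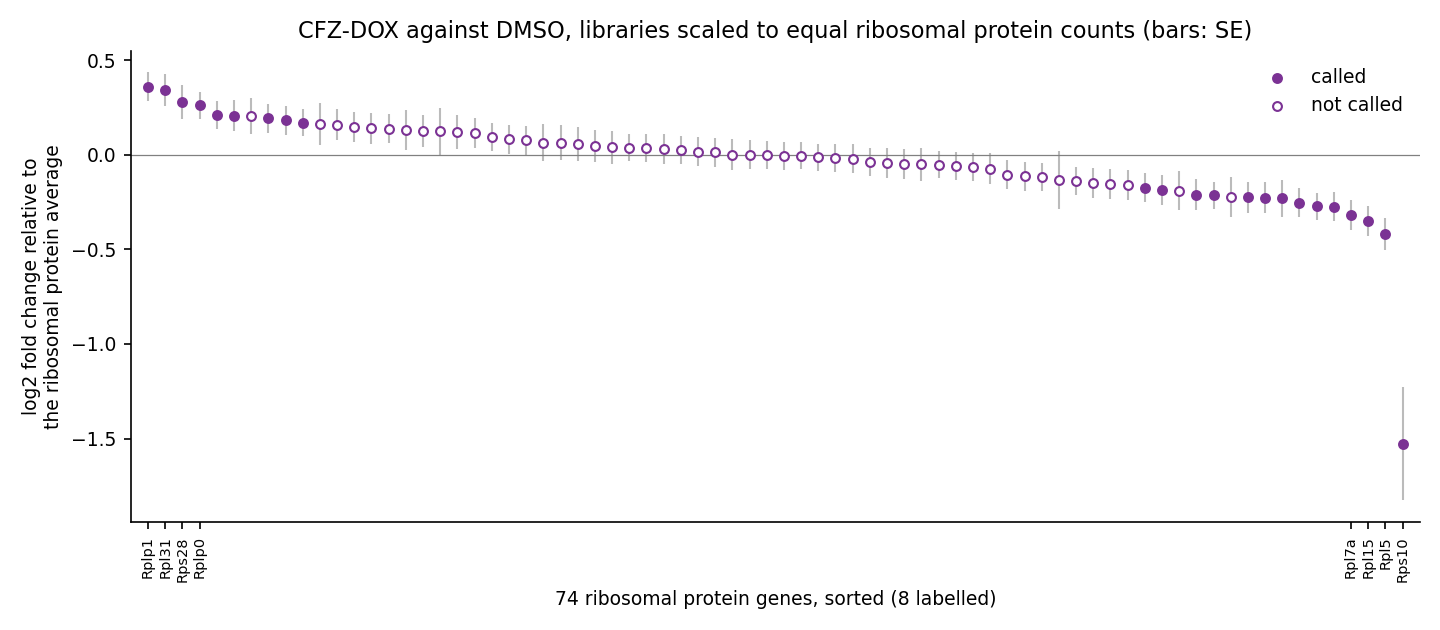
Log2 fold change of each ribosomal protein gene in CFZ-DOX against DMSO, relative to the average of the 74 genes, sorted, with bars for the SE. Filled points were called: 9 genes above the average, led by Rplp1 at 0.36, and 14 below it, ending with Rpl5 at −0.42 and Rps10 at −1.53.

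With single drugs 7 genes in DOX and 5 in CFZ were called away from the average. In DOX against DMSO Rpl31 was higher, at 0.27 ± 0.09 (log2 ± SE, edgeR adjusted p = 0.0122), and 6 genes were lower, where 13.4% of all tested genes were higher and 54.5% lower. The 6 were Rps10 at −2.01, Rpl5 at −0.32, Rpl7a at −0.25, Rpl3 at −0.22, Rpl15 at −0.19 and Rps6 at −0.18, and Rpl13a stood at −0.34 without being called. The 7 calls were 3 to 5 in the fits that each left out 1 library. With the replicate number as a block 13 genes were called in place of 7, and DESeq2 called 15. In CFZ against DMSO Rpl10a was higher, at 0.25 ± 0.08 (edgeR adjusted p = 0.0321), where 8.25% of all tested genes were higher and 14.2% lower. Rpl41 at −0.36, Rpl37a at −0.28, Rpl11 at −0.27 and Rps15 at −0.23 were lower (edgeR adjusted p = 0.0118, 0.0338, 0.0232 and 0.0434). These 5 calls were 0 to 3 in the fits that each left out 1 library and 10 in a fit of the 6 libraries alone, so the counts of the 3 comparisons have no stable order. Between CFZ-DOX and DOX no gene was called, 2 at an unadjusted p under 0.05, 7 by DESeq2 and 3 in the fit blocked by replicate number, where 0.745% of all tested genes were higher and 53% lower.

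Under this scaling a smaller part of the 74 genes than of all tested genes was called in each comparison with DMSO. The 9 higher genes in CFZ-DOX were near the share of all tested genes, 11.1%. Rpl31 and Rpl41 are examples of the called genes. Rpl31 (ENSMUSG00000073702, chromosome 1, 39406923 to 39410992, plus strand), a protein at the rim of the exit tunnel, stood at 2497, 1935 and 1629 CPM in CFZ-DOX, 1395, 1148 and 847 in DOX, 500, 521 and 512 in CFZ, and 480, 496 and 516 in DMSO. Its CFZ and DMSO libraries overlapped. By the deposited coordinates Rpl31 shared 25.3% of its exon bases with Tbc1d8 on the opposite strand. Rpl5 shared 26.7%, mostly with Fam69a on the opposite strand, and Rpl35 and Rpl23a shared more, at 66.2 and 62.3%. The strand setting of the counting is not given, and the part of this overlap in the values was not tested. Rpl41 (ENSMUSG00000093674, chromosome 10, 128383983 to 128385174, minus strand), with 75 coding bases the shortest of the family, stood at 1945, 1529 and 1282 CPM in CFZ-DOX, 1097, 963 and 672 in DOX, 363, 419 and 359 in CFZ, and 434, 473 and 462 in DMSO. All CFZ libraries of Rpl41 lay below all DMSO libraries. Its interaction term, 1.06 ± 0.28 (log2 ± SE), was the highest of the 74 genes (edgeR adjusted p = 0.016), in a range of 0.45 to 1.06.

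Change from DMSO relative to the average went with coding length, with opposite signs in CFZ and in the groups with doxorubicin. Of the other properties listed, exon length came next in CFZ-DOX and DOX, and the mean log2 count in CFZ. Coding length ran from 75 bases in Rpl41 to 1257 in Rpl4, with a median of 453. Across the 74 genes its Spearman rho with the relative log2 fold change was −0.40 in CFZ-DOX, −0.51 in DOX and 0.42 in CFZ, each against the same DMSO libraries, and −0.11 in CFZ-DOX against DOX. In DOX the 25 shortest genes had a median of 0.08, with 18 above 0, and the 25 longest one of −0.05, with 7 above 0. In CFZ the medians of the same genes were −0.08 and 0.04, with 6 and 15 genes above 0. For exon length rho was −0.29 in CFZ-DOX, −0.37 in DOX and 0.27 in CFZ against DMSO. For the mean log2 count it was 0.05, −0.05 and 0.36, and for genomic span −0.22, −0.21 and 0.26. For the percent of exon bases shared with other genes it was −0.04, −0.10 and 0.28. All of these are descriptions across genes that share libraries, depth and scaling.

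**Figure D5:**
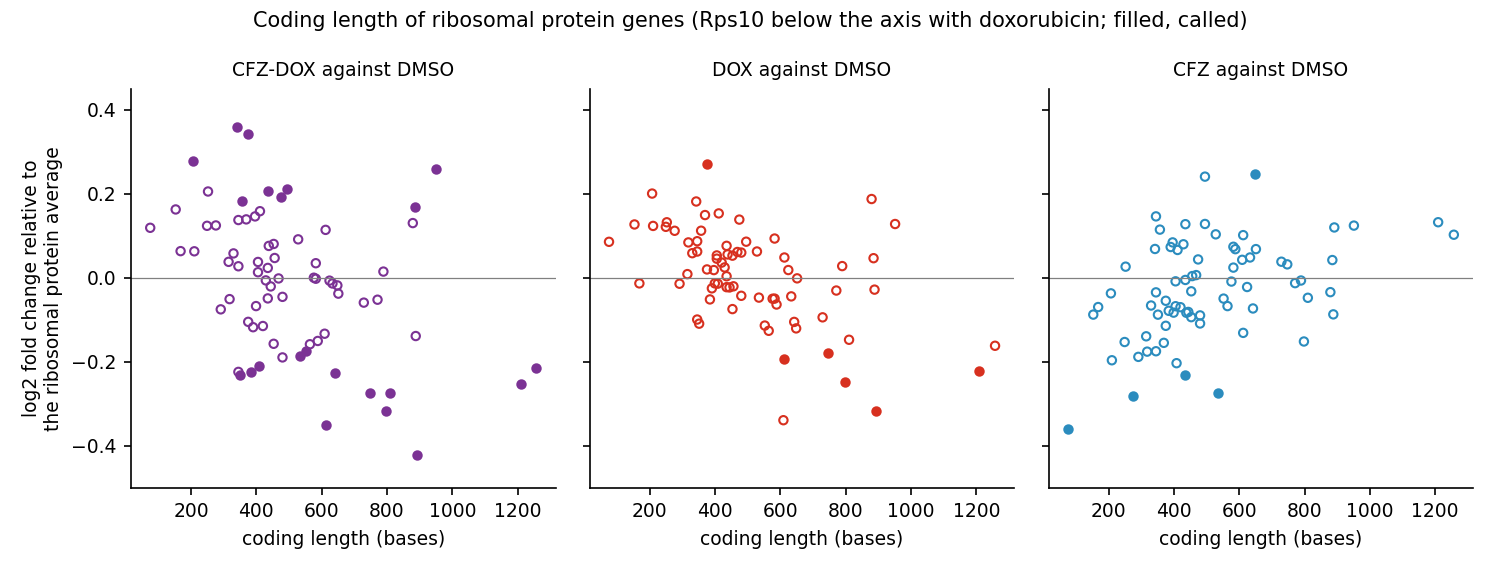
Log2 fold change relative to the family's average against coding length in bases, for CFZ-DOX, DOX and CFZ against DMSO; each point is 1 gene, filled where called, with Rps10 outside the axis in CFZ-DOX and DOX. Spearman rho is −0.40, −0.51 and 0.42 over 74 genes.

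The genes were also set out by their annotated start. In DOX against DMSO the 13 genes with a C run at an annotated start had a median log2 fold change of 0.96, and the 42 others with an entry one of 0.89. In CFZ-DOX against DMSO the medians were 1.73 and 1.65. Rps10, which starts with such a run, was the lowest gene in both. Rpl31, the highest in DOX, has an entry without such a start, and Rplp1, the highest in CFZ-DOX, is among the 19 genes with no entry.

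The spread of levels between the genes was wide in every group. Rplp1, Rplp0 and Rpl8 had the most counts per kb of exon length in DMSO, and Rps10, Rpl13a and Rpl30 the fewest. Exon length covers all annotated exon bases, 6270 in Rps15a with 390 coding bases but 499 in Rplp1 with 342. Its part in this ranking was not tested. The SD of log2 counts without exon length was 1.36 in CFZ-DOX, 1.38 in DOX, 1.26 in CFZ and 1.24 in DMSO. Of the summed counts per kb of the 74 genes, Rplp1 held 9.64% in CFZ-DOX, 8.60% in DOX, 8.15% in CFZ and 7.71% in DMSO. The SD of log2 counts per kb over the genes was 1.53 ± 0.0450 in CFZ-DOX, 1.55 ± 0.0410 in DOX, 1.39 ± 0.00790 in CFZ and 1.39 ± 0.0146 in DMSO (SD over 3 libraries). The exact permutation p against DMSO was 0.1, the smallest possible, for CFZ-DOX and DOX and 0.8 for CFZ. Without Rps10, a choice made after seeing the data, it was 1.25 ± 0.00780 in CFZ-DOX, 1.24 ± 0.0115 in DOX, 1.22 ± 0.00812 in CFZ and 1.21 ± 0.00446 in DMSO. The difference between DOX and DMSO was 0.16 with Rps10 and 0.03 without it. Without Rps10 the exact permutation p against DMSO was 0.1 for CFZ as well as for CFZ-DOX and DOX.

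The summed counts were set against those of 2 like families, the mitochondrial ribosome and the respiratory chain. The log2 ratio of summed counts of the 74 genes to those of 78 mitochondrial ribosomal protein genes was 5.36 ± 0.156 in CFZ-DOX, 4.71 ± 0.132 in DOX, 3.85 ± 0.0248 in CFZ and 3.84 ± 0.00739 in DMSO. Of 77 mitochondrial ribosomal protein genes tested, 23 were higher and 32 lower in CFZ-DOX, and 21 were higher and 29 lower in DOX, with medians of −0.23 and −0.14. Of all tested genes 39.3% were higher and 35.7% lower in CFZ-DOX, and 36.1% were higher and 31.3% lower in DOX. The log2 ratio to 73 nuclear genes of the respiratory chain was 2.86 ± 0.0922 in CFZ-DOX, 2.55 ± 0.0283 in DOX, 2.65 ± 0.0639 in CFZ and 2.48 ± 0.0249 in DMSO. Of 71 respiratory chain genes tested, 65 were higher and 1 lower in CFZ-DOX and 69 were higher in DOX, with medians of 1.37 and 0.93. For both ratios CFZ-DOX and DOX lay above DMSO, with an exact permutation p of 0.1, the smallest possible. For the respiratory chain CFZ also lay above DMSO, with p = 0.1 by the same exact test, whereas for the mitochondrial ribosome p was 0.6. The log2 ratio to the respiratory chain exceeded that of DMSO by 0.38 in CFZ-DOX, 0.06 in DOX and 0.17 in CFZ. Taken over medians of genes in place of sums, these differences were 0.53, 0.13 and 0.48.

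Ribosomal protein genes that the choice by symbol left out moved the same way. Rps27a, which encodes a fusion with ubiquitin, Fau, a fusion with a ubiquitin-like protein, and Rps3a1 were all higher in CFZ-DOX, in DOX, and in CFZ-DOX against DOX. In CFZ-DOX against DMSO the log2 fold change was 1.81 for Fau and 1.48 for Rps3a1. Of 7 paralogues tested, 6 were higher and 1 was lower in DOX and in CFZ-DOX. Of all tested genes 36.1% were higher and 31.3% lower in DOX, and 39.3% were higher and 35.7% lower in CFZ-DOX. Rpl7l1, the lower paralogue, averaged 130.2 ± 20.03 CPM in CFZ-DOX and 111 ± 23.5 in DOX, against 206 ± 9.95 in DMSO. Rpl3l, a paralogue known from striated muscle, held 24, 29 and 30 counts in CFZ-DOX, 58, 58 and 63 in DOX, 0, 2 and 2 in CFZ, and 1, 2 and 3 in DMSO. Annotated pseudogenes of the family held 0.708 ± 0.0581% of counts in CFZ-DOX, 0.482 ± 0.0303% in DOX, 0.278 ± 0.0224% in CFZ and 0.277 ± 0.0197% in DMSO. Most of this lay in Rps2-ps13 and Rps2-ps10, with 0.541 ± 0.0467%, 0.369 ± 0.0307%, 0.204 ± 0.0193% and 0.205 ± 0.0139% in the same groups. Reads of Rps2 and of these near-identical copies cannot be told apart with certainty, so the level of Rps2 is uncertain. Rpl3-ps1 held 219437 counts over the 12 libraries, against 324614 for Rpl3, so the values of Rpl3 may be uncertain too.

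Other genes with TOP messages were called in both directions. Of 22, 16 were higher and 3 lower in CFZ-DOX, where 39.3% of all tested genes were higher and 35.7% lower. In DOX 13 were higher and 2 lower, where 36.1% of all tested genes were higher and 31.3% lower. In CFZ 2 were higher, and 11 were higher in CFZ-DOX than in DOX, where the shares of all tested genes were 14.4% and 10.3%. The difference from the ribosomal protein genes was not tested. The median log2 fold change was 1.06 in CFZ-DOX and 0.57 in DOX against DMSO. The highest in CFZ-DOX were Eef1b2 at 1.83, Tpt1 at 1.79 and Rack1 at 1.61, which encode an elongation factor subunit, the translationally controlled tumour protein and a scaffold on the small subunit. Eif4a2 and Eif4b, which encode an RNA helicase of initiation and its cofactor, and Hnrnpa1 were lower, at −0.97, −0.69 and −0.55. Eif4b was lower in DOX at −1.56 and higher in CFZ-DOX than in DOX at 0.86.

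Of 9 regulators of TOP messages, 8 were lower in CFZ-DOX and 6 in DOX (edgeR, adjusted p under 0.05), where 35.7% and 31.3% of all tested genes were lower. Their median log2 fold changes were −1.20 and −0.71, against 0.09 and 0.14 over all tested genes. Larp1, which binds the TOP motif, averaged 155 ± 17.6 CPM in CFZ-DOX, 181 ± 19.2 in DOX, 381 ± 35.8 in CFZ and 375 ± 51.3 in DMSO. Rptor, the scaffold of an mTOR complex, averaged 26.3 ± 4.10 CPM in CFZ-DOX, 36.7 ± 3.69 in DOX, 199.9 ± 15.2 in CFZ, where it was higher, and 95.0 ± 2.75 in DMSO. Cnbp was lower in CFZ-DOX at −2.07 and not called in DOX, at −0.32. Of 6 chaperones and escorts of ribosomal proteins, Grwd1, Heatr3 and Ltv1 were lower in both CFZ-DOX and DOX and Aamp, whose yeast counterpart escorts Rpl10, was higher in both. Tsr2, the escort of Rps26, was higher in CFZ at 1.15.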

How the data were processed

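Polyadenylated RNA of 12 NIH/3T3 libraries was measured as counts of reads per gene, which the authors deposited as 1 table of raw counts with no normalisation. The tools named in the submitters' processing notes are STAR 2.7.9a, Subread 2.0.2 with featureCounts, and Trimmomatic 0.39, and the build is GRCm39. The strand setting, the handling of reads matching several genes and the annotation release are not given in the sources used here. Unstranded counting would not separate overlapping antisense genes. Gene symbols were matched to 52073 of the 56980 IDs (91.4%).

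Groups came from the sample labels. Genes were tested with edgeR 4.0.16 (R 4.3.3), with the quasi-likelihood test in 1 model of all 12 libraries, TMM scaling and filterByExpr at a minimum count of 10 and a minimum total of 15, which kept 16648 genes. P-values were adjusted by Benjamini-Hochberg over all of these, and 0.05 was the threshold. SE is the log2 fold change divided by the root of its F statistic. A second fit scaled the libraries to equal summed counts of the ribosomal protein genes. Single values such as shares were compared with exact two-sided permutation tests, which cannot go below 0.1 with 3 libraries against 3. The fit was tested on simulated counts before use. In them only a small set of genes changed, in DOX alone and evenly up and down. They therefore do not test the fit under shifts as wide as those found here. Python 3.11.15, pandas 2.3.3 and numpy 2.4.6 were used. The alternatives were other scalings, DESeq2 1.42.0, limma-voom (limma 3.58.1), no filter, the 6 libraries of a comparison alone, a replicate block and leaving out each library. The library totals limit precision only for Rps10 and other genes with few counts.

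The genes and lists were chosen with earlier results of these data known. Genes named in the text are the stalk genes, Rpsa, 13 genes with known roles, the 4 highest and 4 lowest in each comparison and up to 4 called genes each way after scaling to the family. They also include the 3 highest and 3 lowest per kb, those beside the count minimum and up to 3 called genes each way per further list. Rpl7a, Rps15 and others outside that rule in a comparison complete a set of calls and were chosen after their values were seen. A few genes of these lists are not reported here. Deviations from the group mean correlated between same-numbered libraries at r of 0.31 to 0.63 in CFZ-DOX with DOX, 0.21 to 0.23 in DOX with DMSO, 0.26 to 0.37 in CFZ with DMSO, and 0.04 to 0.27 in CFZ-DOX with DMSO. The labels give no source for a pairing.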

Additional observations from a re-analysis of the deposited data

Results flagged for a closer look

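The effect of carfilzomib on ribosomal protein genes differed with and without doxorubicin by the interaction term. It was higher with doxorubicin for 19 of the 74 genes (edgeR, adjusted p under 0.05), where 8.46% of all tested genes were higher and 11.2% lower. The count ran from 1 to 71 when single libraries were left out. Among them the log2 interaction was 1.06 for Rpl41, 0.97 for Rpl37a, 0.92 for Rps15 and 0.84 for Rpl13a.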

How the results depend on the processing

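Higher calls against DMSO in CFZ, 0 with TMM, numbered 1 with library size, 1 with scaling to the family, 1 with DESeq2 and 10 in the 6 libraries alone, and lower calls, also 0, numbered 3, 4 and 3 with library size, scaling to the family and 6 libraries. Scaling to the family left 1 higher and 6 lower in DOX, 9 and 14 in CFZ-DOX and 0 in CFZ-DOX against DOX, where the 6 libraries alone gave 2. The interaction, 19 higher, gave 64 with DESeq2 size factors, 70 with library size, 60 with upper quartile, 1 with scaling to the family, 74 with DESeq2, 43 with limma-voom and 74 without DOX and CFZ-DOX replicate 3, and 1 to 71 without single libraries.

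Calls relative to the family's average were, for CFZ (5), 3 with median-member scaling, 10 with DESeq2, 0 with no filter and 10 in the 6 libraries, for DOX (7), 15 with DESeq2 and 2 with no filter, for CFZ-DOX (23), 7 with no filter and 9 in the 6 libraries, and for CFZ-DOX against DOX (0), 7 with DESeq2. Without single libraries they were 0 to 3 for CFZ, 3 to 5 for DOX, 12 to 23 for CFZ-DOX and 0 to 1 for CFZ-DOX against DOX. With the replicate number as a block, a pairing seen in the data and not in the labels, the interaction gave 62 higher, DOX 13 and CFZ-DOX against DOX 3 relative to the average, and no other count moved by over 1.5 times.

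The spread between genes differed from DMSO by 0.0176 without exon length in CFZ, and without Rps10 by 0.0142 in CFZ, 0.0297 in DOX and 0.0458 in CFZ-DOX. Over medians of genes the log2 ratio to mitochondrial ribosomal genes differed from DMSO by −0.0361 in CFZ, and that to the respiratory chain by 0.482 in CFZ, 0.131 in DOX and 0.527 in CFZ-DOX. Scaling to the family turned the direction of Rpl5 (−0.42 in CFZ-DOX, −0.32 in DOX, −0.10 in CFZ-DOX against DOX), Rpl11 (−0.19, −0.047 and −0.14), Rps10 in CFZ-DOX (−1.53) and Rpl13a (−0.13 in CFZ-DOX, −0.34 in DOX), by its own construction. The causes of the other shifts were not tested.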
